A study of Mus musculus with 12 samples.

Results

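Keratinocytes are not only the structural cells of the epidermis but also a source of secreted signals that call in and instruct immune cells. The genes described here are 10 such genes or their regulators: the colony-stimulating factors *Csf3* and *Csf2*, the chemokines *Cxcl1*, *Cxcl2* and *Ccl20*, the interleukin-1 genes *Il1a*, *Il1b* and *Il1rn*, the epithelial cytokine *Tslp*, and *Nfkbid*, which encodes a nuclear inhibitor protein of the NF-kappaB family. They were taken by gene name from a count table of 21947 loci, and each name matched 1 locus. *Csf3* and *Nfkbid* were chosen by their counts in these libraries, which were lower with siSbsn than with siControl in both batches, so for these 2 genes that comparison is a description and carries no test. The other 8 were listed as relatives of *Csf3* in the same signalling system. Of the 10 genes, 9 passed the filter on low counts across both batches. *Csf2* did not, and it was fitted within batch 1 only.

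The cultures were primary keratinocytes of newborn BALB/c mice. All of them were grown at 0.05 mM calcium and moved to 0.12 mM calcium, which starts differentiation. Pools of short interfering RNA (siRNA) were given at 75 pmol, either against *Sbsn* (siSbsn) or without a target in the mouse (siControl), and RNA was taken at 48 h. Of the 12 RNA-Seq libraries 6 formed batch 1, with 2 each for no siRNA, siControl and siSbsn, and 6 formed batch 2, with 3 each for siControl and siSbsn. The labels do not say what separates the batches, nor whether the libraries of a group came from separate litters, so p-values measure the spread between these libraries, which may be technical.

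In resting skin interleukin-1 alpha is stored inside keratinocytes and acts when cells are damaged. Interleukin-1 alpha and beta signal through the receptor *Il1r1* and its partner *Il1rap* to NF-kappaB, and the product of *Il1rn* occupies the same receptor without signalling. NF-kappaB then raises transcription of chemokine and growth factor genes, among them *Cxcl1*, *Cxcl2* and *Ccl20*, which attract neutrophils and CCR6-bearing T cells and dendritic cells, and *Csf3*, which drives neutrophil production. Transcripts of many of these genes are short-lived because AU-rich elements in the 3' untranslated region (UTR) recruit decay proteins.

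Promoters of 8 of the 10 genes were found in RefSeq (GRCm38.p6), each covering 250 bases before and 50 bases after a start site. No promoter of *Csf3* or *Tslp* was used here. The 8 were searched on both strands for the kappaB motif and for the AP-1 motif TGANTCA, and on the gene's strand for TATAAA. Members are counted by gene, with a match at any start site, whereas the percentages count single promoters. The kappaB motif was present in promoters of 4 genes, *Cxcl1*, *Cxcl2*, *Ccl20* and *Nfkbid* (1 of 3 promoters), and in 8.46% of all 32851 promoters of the same length. TATAAA was present in *Il1a* and *Il1b* and in 8.32% of all promoters. The AP-1 motif was present in *Il1a* and in 1 of the 3 *Il1rn* promoters, and in 7.81% of all promoters. Shown are the 120 bases before the start site of the 3 chemokines, whose fitted values were all below 0 with siSbsn, and of *Il1a* and *Il1rn*, the agonist and the antagonist of the ratio given further on. Capitals mark matches of any of the 3 motifs. The AP-1 match of the *Il1rn* promoter shown begins 141 bases before the start site, outside these 120 bases. In *Cxcl1* and *Cxcl2* the capitals cover overlapping kappaB matches on opposite strands, which begin 71 and 97 bases before the start site.
Cxcl1: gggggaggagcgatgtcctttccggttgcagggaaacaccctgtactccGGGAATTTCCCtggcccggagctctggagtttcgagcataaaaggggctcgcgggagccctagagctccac
Cxcl2: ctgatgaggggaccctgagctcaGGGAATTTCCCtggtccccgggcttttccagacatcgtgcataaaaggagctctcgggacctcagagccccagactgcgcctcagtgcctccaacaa
Ccl20: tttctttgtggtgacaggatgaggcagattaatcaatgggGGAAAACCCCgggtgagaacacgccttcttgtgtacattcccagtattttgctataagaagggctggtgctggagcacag
Il1a: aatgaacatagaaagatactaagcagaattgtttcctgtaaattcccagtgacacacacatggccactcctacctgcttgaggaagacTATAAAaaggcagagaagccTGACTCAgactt
Il1rn: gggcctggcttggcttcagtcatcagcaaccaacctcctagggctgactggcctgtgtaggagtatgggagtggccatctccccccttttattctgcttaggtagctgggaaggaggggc
These lie at chr5:90891125-90891244 (plus strand), chr5:90903779-90903898 (plus), chr1:83116646-83116765 (plus), chr2:129309973-129310092 (minus) and chr2:24336740-24336859 (plus). *Cxcl1* and *Cxcl2* are neighbours on chromosome 5, and their kappaB letters are the same. The 2 kappaB matches of *Nfkbid* lie 226 and 181 bases before the second of its 3 start sites. A match is a run of letters, not a measured binding site.

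The 3' UTRs of the longest coding transcripts (GENCODE, GRCm38) were searched for the AU-rich pentamer ATTTA. It was present in 9 of the 10 genes and in 64.7% of 20964 coding genes. The exception was *Il1rn*, with no match in 1864 bases. The median was 5 pentamers per member, and 1 over all coding genes. The nonamer TTATTTATT was present in 3 of the 10 genes, *Csf2*, *Cxcl1* and *Cxcl2*, and in 7.58% of all coding genes. Shown for the genes with the densest runs, and for *Nfkbid* as the sparsest, are the 30 bases that hold most pentamers, with the pentamers in capitals.
Csf2: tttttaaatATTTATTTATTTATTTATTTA
Cxcl1: gagggtcctATTTATTTAtgtATTTATTTA
Cxcl2: tATTTATTTAtctatgtATTTATTTATTTA
Csf3: gatagtttATTTAtctctATTTAatATTTA
Il1b: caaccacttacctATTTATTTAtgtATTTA
Nfkbid: tgtcctgagtcctggctacatcatcATTTA
These lie at chr11:54247329-54247358 (minus strand), chr5:90892602-90892631 (plus), chr5:90905327-90905356 (plus), chr11:98702984-98703013 (plus), chr2:129364808-129364837 (minus) and chr7:30428625-30428654 (plus). The whole 3' UTR held 9 pentamers in *Csf2*, 7 in *Cxcl1*, 11 in *Cxcl2*, 6 in *Csf3*, 4 in *Il1b*, 9 in *Ccl20*, 3 in *Il1a*, 2 in *Tslp* and 1 in *Nfkbid*. The list therefore holds genes rich in these elements beside *Il1rn*, which has none.

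Levels differed widely among the 10 genes. Divided by the length of the longest coding transcript, the median level over the 12 libraries was 84.2 CPM per kilobase for *Tslp* (CPM is the count scaled to a library of 1000000 effective counts). It was 15.4 for both *Il1a* and *Il1rn*, 3.84 for *Cxcl1*, 2.08 for *Ccl20*, 1.78 for *Csf3*, 1.30 for *Nfkbid*, 0.544 for *Il1b*, 0.188 for *Cxcl2* and 0.0749 for *Csf2*. Most of this order held library by library. *Tslp* was above *Il1a* in 11 of 12 libraries, *Il1rn* above *Cxcl1* in 12, *Cxcl1* above *Ccl20* in 12, and *Csf3* above *Nfkbid* in 12. *Il1a* was above *Il1rn* in only 8 of 12 libraries, *Ccl20* above *Csf3* in 9, and *Cxcl2* above *Csf2* in 7, so these neighbours changed places. The locus of *Il1a* is joined with *Gm14023* and that of *Il1b* with *Il1bos*, and reads of the overlapping partners cannot be told apart here. *Csf2* had 0 to 19 reads and *Cxcl2* 2 to 43 reads per library, and *Csf3* had 53 to 157.

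Receptors for these signals were measured in the same libraries. *Il1r1* ranged from 16.0 to 74.4 CPM and *Il1rap* from 28.8 to 80.8 CPM. *Crlf2*, the TSLP receptor subunit, ranged from 10.7 to 32.4 CPM. The receptors for the chemokines and for the *Csf3* product were at or near 0: *Cxcr1* had no read in any library, *Ccr6* had at most 3, *Csf3r* at most 10 and *Cxcr2* at most 18. The GM-CSF receptor genes were detected, with 68 to 184 reads for *Csf2ra*, 6 to 76 for *Csf2rb* and 6 to 49 for *Csf2rb2*. So were *Sigirr* (126 to 293 reads), the decoy receptor *Il1r2* (27 to 72) and *Il7r* (3 to 50), the partner of *Crlf2*.

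Total counts were 27934836 to 49553923 per library. In batch 1 the targeted gene was lower in only 1 of the libraries labelled siSbsn and higher in the other. Its log2 fold change there was 0.04 ± 0.45. *Sbsn*, in CPM, was 1700 and 1230 without siRNA, 1190 and 1360 with siControl, and 1960 and 696 in the libraries labelled siSbsn. In batch 2 it was 371, 332 and 459 with siControl and 124, 125 and 121 in the libraries labelled siSbsn, with a log2 fold change of −1.64 ± 0.10 (SE, n = 3 and 3, edgeR adjusted p = 0.00056). It was the 1 locus called of 12924 tested in batch 2 alone (0.00774%). Hence values of siSbsn against siControl are given for each batch as well, and siSbsn in batch 1 means libraries labelled siSbsn. The 8 keratinocyte markers summed to 30000 to 51000 CPM in batch 1 and 25800 to 28900 CPM in batch 2. Leukocyte markers (15 genes) summed to 21.5 to 34.3 CPM in batch 1 and 10.6 to 13.4 CPM in batch 2, with *Cd207* at 0 in all 12 libraries and *Ly6g* and *Mpo* at 1 read or fewer. Others of them were detected in every library, among them *Cd68* (160 to 310 reads), *S100a8* (83 to 455), which keratinocytes also make, *Lyz2* (37 to 302), *Cd14* (53 to 141), *Csf1r* (11 to 150) and *Ptprc* (10 to 84). Fibroblast markers (8 genes) summed to 446 to 1220 CPM in batch 1 and 390 to 455 CPM in batch 2, melanocyte markers (5 genes) to 685 to 853 and 961 to 1010 CPM, and endothelial markers (5 genes) to 1.22 to 3.21 and 2.25 to 3.28 CPM. In such bulk samples fewer cells of a type and less RNA per cell cannot be told apart.

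**Figure D1:**
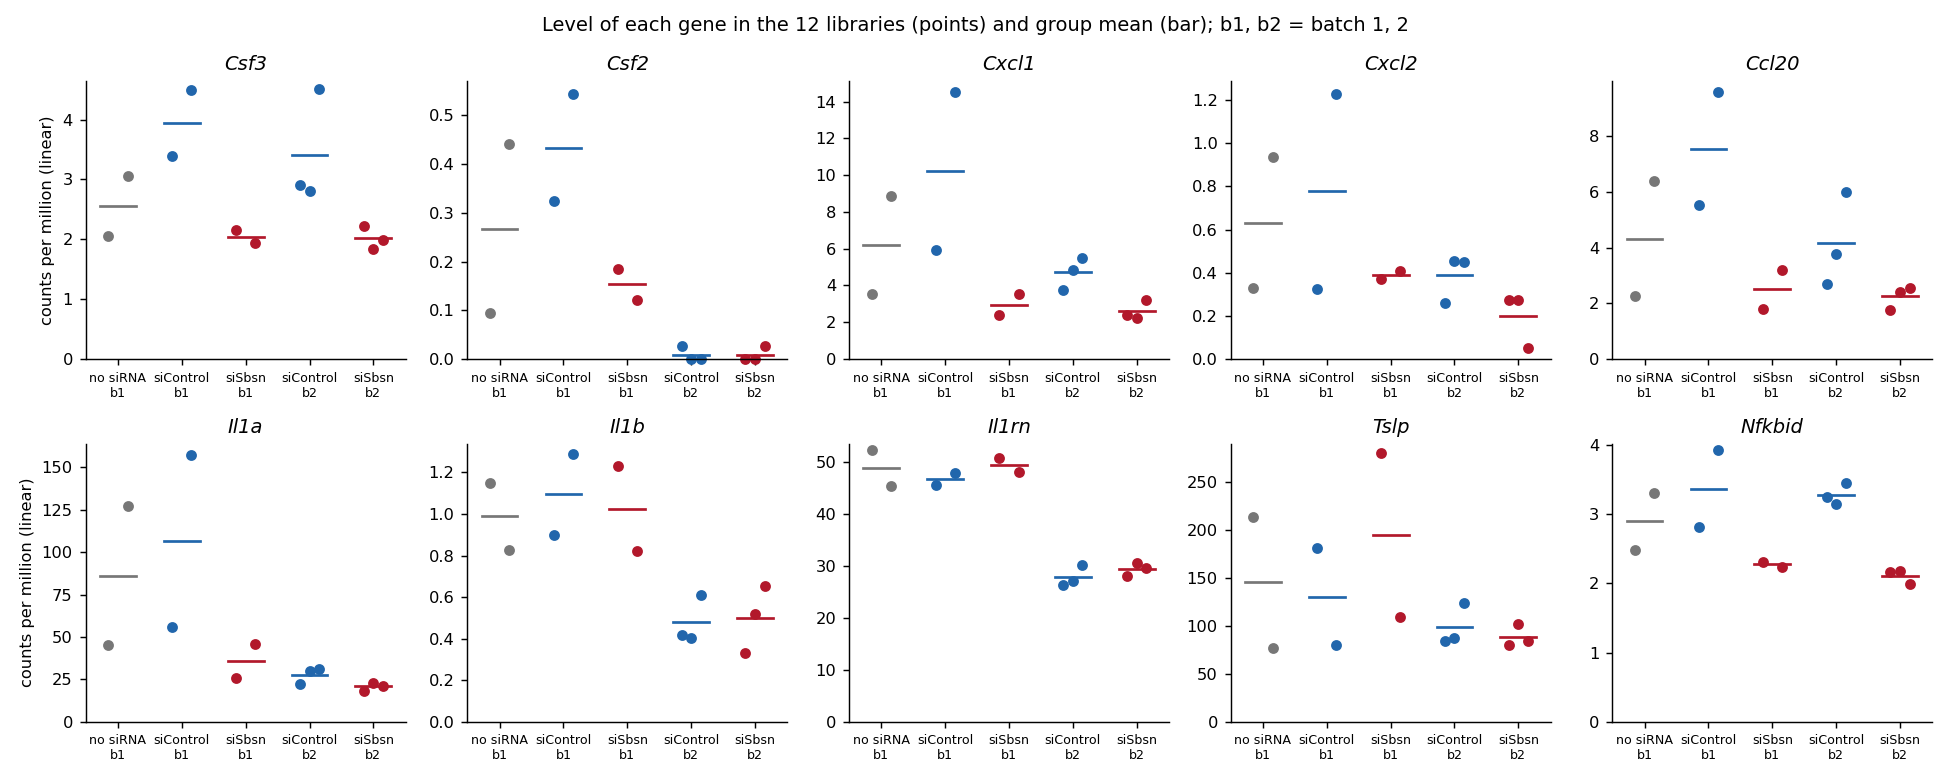
CPM of each of the 10 genes (y axis, linear from 0, one scale per gene) in the 5 groups (x axis; b1 and b2 are batches 1 and 2). Each point is a library in order of its number and each bar is the group mean; for *Csf3*, *Nfkbid*, *Cxcl1* and *Ccl20* all siSbsn points of a batch lie below all siControl points of that batch.

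*Csf3* and *Nfkbid*, the genes chosen for this pattern, were lower with siSbsn in both batches. *Csf3* was 3.39 and 4.49 CPM with siControl and 2.16 and 1.93 CPM with siSbsn in batch 1. In batch 2 *Csf3* was 2.90, 2.80 and 4.51 CPM with siControl and 2.23, 1.83 and 1.99 CPM with siSbsn. The siSbsn libraries of both batches therefore lay close to 2 CPM, and the siControl libraries between 2.80 and 4.51 CPM. *Nfkbid* was 2.81 and 3.92 CPM with siControl and 2.31 and 2.24 CPM with siSbsn in batch 1. In batch 2 *Nfkbid* was 3.24, 3.15 and 3.45 CPM with siControl and 2.16, 2.18 and 1.99 CPM with siSbsn. With batch in the model the log2 fold change was −0.82 ± 0.17 (SE) for *Csf3* and −0.60 ± 0.12 for *Nfkbid*. That is 56.8% and 65.9% of the siControl level. With gene length trends removed the log2 fold change was −0.597 for *Csf3* and −0.462 for *Nfkbid*. Within batches 1 and 2 it was −0.97 ± 0.36 and −0.71 ± 0.19 for *Csf3*, and −0.58 ± 0.36 and −0.63 ± 0.12 for *Nfkbid*. These values chose the genes and are given without a test.

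The remaining members were tested. No member of the 7 that could be tested over both batches was called (edgeR quasi-likelihood test, absolute log2 fold change over 0.5 and Benjamini-Hochberg adjusted p under 0.05). Over all 12857 loci the number called was 0 as well (0%), whereas 2464 loci (19.2%) had an unadjusted p under 0.05. Among the 7 members 4 had an unadjusted p under 0.05, all of them lower with siSbsn, beside 9.49% of all loci that were so in that direction. DESeq2 called 92 loci and 2 of the 7 members, *Cxcl1* and *Ccl20*. Of the loci with a DESeq2 adjusted p, 0.342% were called lower. *Cxcl2*, among the 7, had no DESeq2 adjusted p and is outside that share. In batch 2 alone edgeR called none of the 7 members, and 3 of them had an unadjusted p under 0.05, all lower, beside 5.69% of all loci there. The fibroblast marker sum of the siSbsn libraries was 1220 and 529 CPM in batch 1, with siControl at 462 and 446 CPM, and 390 to 426 CPM in batch 2, with siControl at 401 to 455 CPM. Its part in these values was not tested.

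Of the tested members the attractants *Cxcl1* and *Ccl20* were furthest from siControl. *Cxcl1*, in CPM, was 5.94 and 14.5 with siControl and 2.37 and 3.54 with siSbsn in batch 1. Batch 2 had 3.76, 4.86 and 5.51 with siControl and 2.39, 2.21 and 3.20 with siSbsn. No siSbsn library reached a siControl library of its batch. The log2 fold change was −1.23 ± 0.28 (SE, n = 5 and 5), with an adjusted p of 0.254 by edgeR and 0.0078 by DESeq2. It was −0.88 without siControl replicate 2 of batch 1, the library with the highest *Cxcl1*, and −1.09 with gene length trends removed. Within batch 1 it was −1.80 ± 0.47 and within batch 2 −0.84 ± 0.18, and edgeR called neither (adjusted p = 0.423 and 0.351).

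*Ccl20*, the ligand of CCR6, followed the same order. It was 5.51 and 9.58 CPM with siControl and 1.79 and 3.21 CPM with siSbsn in batch 1, and in batch 2 it was 2.69, 3.78 and 5.99 CPM with siControl and 1.77, 2.42 and 2.54 CPM with siSbsn. Again the groups did not overlap within either batch, although the gap in batch 2 was narrow (2.54 against 2.69 CPM). The log2 fold change was −1.17 ± 0.28, with an adjusted p of 0.254 by edgeR and 0.012 by DESeq2. It was −1.61 ± 0.43 in batch 1 and −0.88 ± 0.27 in batch 2. Without siControl replicate 2 of batch 1 it was −0.947, and with gene length trends removed −0.954. Over all loci tested, 4.22% lay lower without overlap in both batches. Among the 8 members that were not chosen for this pattern, 2 did. These 8 include *Csf2*, which did not pass the filter and is outside the loci tested.

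*Cxcl2*, a close relative of *Cxcl1*, had few reads. It was 0.324 and 1.23 CPM with siControl and 0.370 and 0.410 CPM with siSbsn in batch 1, where the groups overlapped. Batch 2 had 0.261, 0.454 and 0.451 CPM with siControl and 0.272, 0.276 and 0.0524 CPM with siSbsn, which overlapped too. The log2 fold change was −0.97 ± 0.43 (edgeR adjusted p = 0.258), with −1.02 ± 0.65 in batch 1 and −0.92 ± 0.49 in batch 2. DESeq2 gave no adjusted p. Without siControl replicate 2 of batch 1 the log2 fold change of *Cxcl2* was −0.54. *Csf2*, which encodes the growth factor GM-CSF, was 0.324 and 0.543 CPM with siControl and 0.185 and 0.121 CPM with siSbsn in batch 1. Its log2 fold change there was −1.54 ± 0.61, given without a test since the gene passed the filter only through the libraries where it was high. At 0 or 1 read per library in batch 2 no difference was detectable at this depth.

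The 3 interleukin-1 genes did not share one direction. *Il1a*, in CPM, was 56.1 and 157 with siControl and 26.0 and 45.9 with siSbsn in batch 1. Batch 2 had 22.3, 30.2 and 30.8 with siControl and 18.4, 22.9 and 21.2 with siSbsn. The groups were apart in batch 1 and overlapped in batch 2, where 1 siSbsn library (22.9 CPM) lay above 1 siControl library (22.3 CPM). The log2 fold change was −0.87 ± 0.31, with an adjusted p of 0.254 by edgeR and 0.099 by DESeq2. It was −1.58 ± 0.49 in batch 1 and −0.41 ± 0.13 in batch 2. The difference between the batches was 1.16 ± 0.54, which edgeR did not call (adjusted p = 0.337). Without siControl replicate 2 of batch 1, the library with the highest *Il1a*, the log2 fold change over both batches was −0.47.

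*Il1b* ranged from 0.330 to 1.29 CPM over the 10 siRNA libraries, and its groups overlapped in both batches. Its log2 fold change was −0.02 ± 0.24 (edgeR adjusted p = 0.968), with −0.13 ± 0.45 in batch 1 and 0.05 ± 0.33 in batch 2. *Il1rn*, the antagonist, was 45.6 and 47.9 CPM with siControl and 50.9 and 48.1 CPM with siSbsn in batch 1. In batch 2 it was 26.4, 27.2 and 30.2 CPM with siControl and 28.1, 30.6 and 29.6 CPM with siSbsn. Its libraries lay close together within a batch, and its log2 fold change was 0.09 ± 0.07 (edgeR adjusted p = 0.425), with 0.06 ± 0.25 in batch 1 and 0.08 ± 0.07 in batch 2.

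*Tslp*, which instructs dendritic cells toward allergic responses, was the most abundant member per length. It was 181 and 80.1 CPM with siControl and 280 and 109 CPM with siSbsn in batch 1. In batch 2 it was 84.5, 87.4 and 124 CPM with siControl and 79.9, 102 and 84.0 CPM with siSbsn. The 2 libraries of a group in batch 1 lay further apart than the groups did. The log2 fold change was 0.15 ± 0.29 (edgeR adjusted p = 0.750), and its sign differed between batch 1 (0.54 ± 0.52) and batch 2 (−0.14 ± 0.14), with a difference of −0.71 ± 0.58 that edgeR did not call (adjusted p = 0.523). In the test of that difference between batches no member was called (7 tested), nor was any of the 12857 loci (0%), of which 1945 had an unadjusted p under 0.05. DESeq2 called 165 loci, none of them a member. The 0 over all loci rests on single libraries: edgeR called 4905 of 12974 loci without siControl replicate 2 of batch 1 and 435 of 12924 without siSbsn replicate 2 of batch 1, again with 0 members. Each leaves 1 library in an arm, which is then assumed to vary like the other groups.

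**Figure D2:**
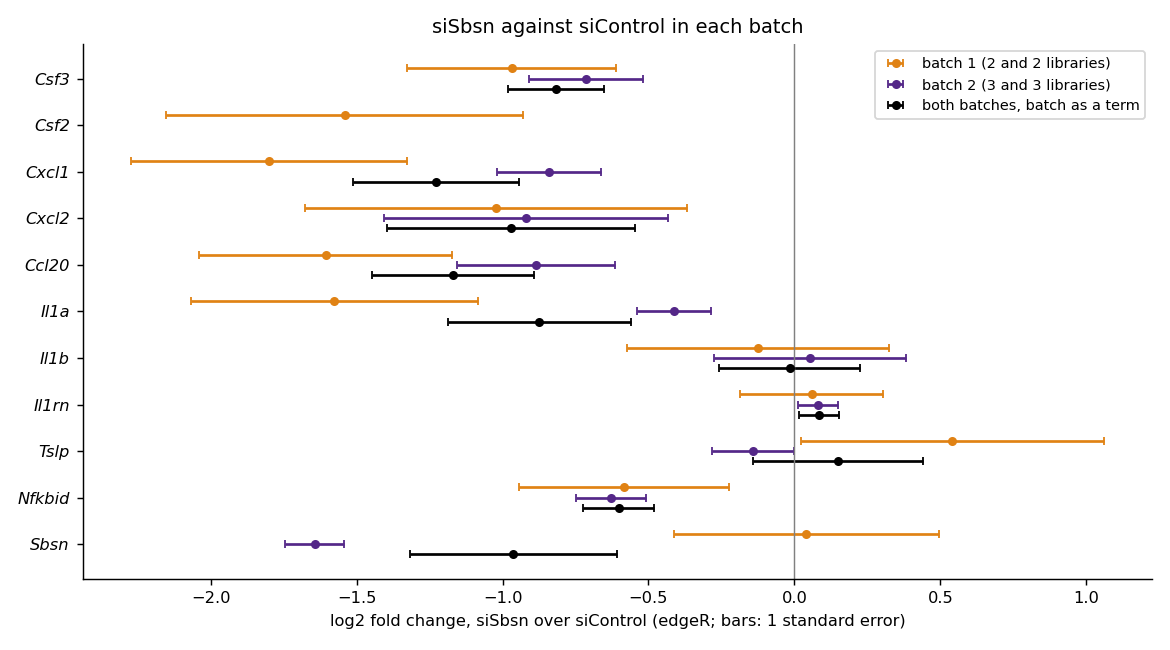
Log2 fold change of siSbsn over siControl (x axis, edgeR, bars of 1 standard error) for each gene and for *Sbsn* (y axis), within batch 1, within batch 2 and over both batches. *Cxcl1*, *Ccl20*, *Cxcl2*, *Il1a*, *Csf3* and *Nfkbid* lie left of 0 in both batches, *Il1b* and *Il1rn* lie near 0, and *Sbsn* lies left of 0 in batch 2 and at 0.04 in batch 1.

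The balance of antagonist to agonist in the interleukin-1 system was compared as *Il1rn* over the sum of *Il1a* and *Il1b*, in counts per kilobase. The ratio was 0.634 and 0.240 with siControl and 1.46 and 0.814 with siSbsn in batch 1. In batch 2 it was 0.923, 0.705 and 0.760 with siControl and 1.19, 1.03 and 1.07 with siSbsn. Every siSbsn library was above every siControl library of its batch. Of all single loci tested, 5.13% lay above in this way in both batches and 4.22% lay below. No such share was computed for ratios of loci, so these shares are not a background for the ratio. The ratio was 1.83-fold higher with siSbsn (log2 difference 0.88), with p = 0.017 in an exact two-sided permutation test of the labels within batches, the smallest p that the 120 assignments allow. Most of the size of this difference comes from *Il1a*, since the log2 fold change of *Il1rn* was 0.09. The lack of overlap in batch 2 rests on *Il1rn* too. There *Il1a* overlapped, at 22.9 CPM in siSbsn replicate 5 and 22.3 CPM in siControl replicate 1. *Il1rn* was 30.6 and 26.4 CPM in these libraries, and the ratio 1.03 and 0.923. Without siSbsn replicate 1 of batch 1 the log2 difference was 0.65 (p = 0.0667, exact permutation), and in batch 2 alone it was 0.47 (p = 0.1, the smallest p that 3 against 3 libraries allow in the exact permutation test). The libraries without siRNA had ratios of 0.892 and 0.283.

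**Figure D3:**
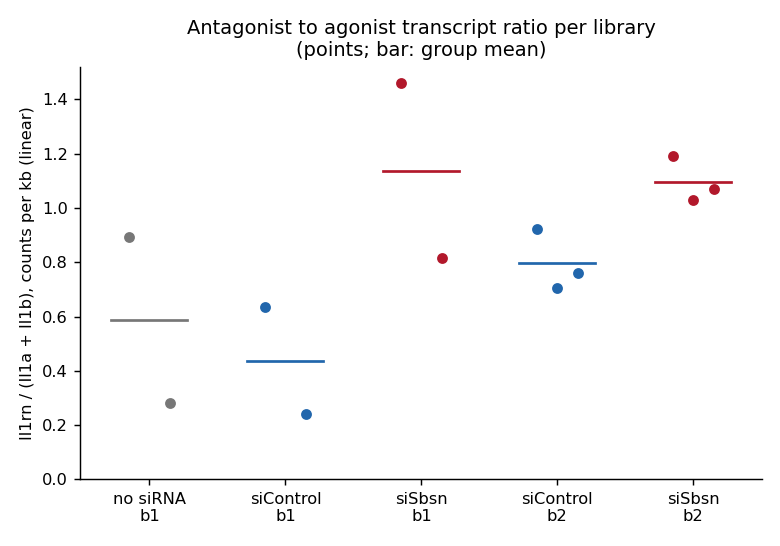
Ratio of *Il1rn* to the sum of *Il1a* and *Il1b* in counts per kilobase of transcript (y axis, linear from 0) in the 5 groups (x axis). Points are libraries and bars are group means; the siSbsn points lie above the siControl points of the same batch, at 1.46 and 0.814 against 0.634 and 0.240 in batch 1.

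Genes around the members were taken from 7 lists, of receptors, further keratinocyte cytokines, NF-kappaB subunits and inhibitors, NF-kappaB feedback and target genes, upstream signalling, interleukin-1 processing and regulators of mRNA decay. Of 101 list genes tested in siSbsn against siControl edgeR called 0. At an unadjusted p under 0.05 there were 30, of which 26 were lower, beside 19.2% of all loci in either direction and 9.49% lower. The median log2 fold change was −0.09, and 0.01 over all loci. DESeq2 called *Ier3*, an immediate early gene, and *Il1f6*, which encodes interleukin-36 alpha and did not pass edgeR's filter.

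Further cytokines and chemokines had a median log2 fold change of −0.25 over 24 tested genes, of which 16 were below 0 and 9 had an unadjusted p under 0.05, all lower. *Cxcl16* and *Il33*, the most abundant, had −0.45 ± 0.13 and 0.14 ± 0.11 (edgeR adjusted p = 0.254 and 0.408), and −0.18 and −0.09 in batch 2 alone. *Cxcl3* and *Cxcl5*, neutrophil attractants like *Cxcl1* that are named after their values were seen, had −1.23 and −1.10 (adjusted p = 0.254 each), and −0.75 and −0.53 in batch 2 alone. None of the 24 was called. In batch 2 alone the median was −0.22, with 19 of 24 below 0 and 7 lower at an unadjusted p under 0.05.

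In the NF-kappaB family 8 of 10 genes were below 0, with a median of −0.14, and 4 had an unadjusted p under 0.05, all lower. *Rela*, the main activating subunit, had −0.10 ± 0.09 (edgeR adjusted p = 0.451) and −0.0056 in batch 2 alone. *Nfkbia*, whose product holds NF-kappaB in the cytoplasm and which is itself a target gene, had −0.53 ± 0.16 (adjusted p = 0.254) and −0.26 in batch 2 alone, where the median of the family was −0.15. All siSbsn libraries were below all siControl libraries of their batch for 4 of these 10 genes, *Relb*, *Nfkb2*, *Nfkbia* and *Nfkbib*, beside 4.22% of all loci. In the same way 6 of 24 further cytokines, 3 of 17 feedback and target genes, 3 of 15 decay regulators, 1 of 17 upstream genes, 1 of 9 receptors and 0 of 9 processing genes lay below. All siSbsn libraries lay above for 3 upstream genes and 1 decay regulator, beside 5.13% of all loci. Among 17 feedback and target genes the median was −0.13, and 5 genes were lower and 1 higher at an unadjusted p under 0.05. *Ptgs2* had −0.48 ± 0.27 and *Ier3* −0.65 ± 0.16 (edgeR adjusted p = 0.304 and 0.254). In batch 2 alone they had −0.29 and −0.36, and the median of the list was −0.12.

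The upstream signalling list had a median of 0.11 and 3 of 17 genes below 0. At an unadjusted p under 0.05 3 genes were higher and 1 lower. *Tollip*, an inhibitor of interleukin-1 receptor signalling, had 0.21 ± 0.08 and *Tab2*, an adaptor of the TAK1 kinase, 0.23 ± 0.14 (edgeR adjusted p = 0.254 and 0.336). For *Tollip*, *Tab2* and the list's median the values in batch 2 alone were 0.10, 0.09 and 0.03. For the receptors the median was −0.18 over 9 genes, and 3 were lower and 0 higher at an unadjusted p under 0.05. The 3 were *Crlf2*, *Sigirr* and *Il1r2*. *Il1rap* had 0.40 ± 0.19 and *Il1r1* 0.09 ± 0.17 (edgeR adjusted p = 0.265 and 0.736). For the receptor median, *Il1rap* and *Il1r1* the values in batch 2 alone were −0.26, 0.15 and 0.09. Interleukin-1 processing genes had a median of −0.02 (9 tested), with *Capn2* at −0.04 ± 0.08 and *Capn1* at 0.06 ± 0.11 (adjusted p = 0.765 and 0.734), and in batch 2 alone −0.01, 0.02 and −0.10. Regulators of mRNA decay had a median of 0.01 (15 tested), with *Mapkapk2* at −0.08 ± 0.07 and *Elavl1* at −0.13 ± 0.08 (edgeR adjusted p = 0.427 and 0.318). In batch 2 alone these were −0.04, −0.07 and −0.04. At an unadjusted p under 0.05 over both batches 1 processing gene and 3 decay regulators were lower and 0 of either list higher.

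Between the batches 4 of the 9 members were called, all lower in batch 2, beside 21.3% of all loci called lower and 16.4% called higher. *Il1a* had a log2 fold change of −1.40 ± 0.31 (edgeR adjusted p = 0.0040), *Il1b* −1.14 ± 0.24 (adjusted p = 0.0030), *Il1rn* −0.75 ± 0.07 (adjusted p = 2.1e-05) and *Tslp* −0.79 ± 0.29 (adjusted p = 0.042). *Il1rn* was 45.6 to 50.9 CPM in the 4 siRNA libraries of batch 1 and 26.4 to 30.6 CPM in batch 2, with no overlap. The call of *Tslp* was lost in 9 alternatives (edgeR adjusted p = 0.0665 to 0.263): with gene length trends removed (−0.35), without siSbsn replicate 1 of batch 1 (−0.36), in the fit of all 12 libraries, and without siControl replicate 1 of batch 1, siControl replicate 1 or 2 of batch 2, or any 1 of the 3 siSbsn libraries of batch 2.

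*Cxcl1*, *Cxcl2* and *Ccl20* had −0.70 ± 0.28, −1.01 ± 0.42 and −0.56 ± 0.28 and missed the call (edgeR adjusted p = 0.055, 0.064 and 0.109). Without siControl replicate 2 of batch 1 they were −0.24, −0.48 and −0.26. *Cxcl1* was called by DESeq2 (adjusted p = 0.0488), without the filter on low counts (0.0342), and by edgeR without siControl replicate 1 of batch 1 (0.0209), siSbsn replicate 1 of batch 1 (0.0333) or siSbsn replicate 6 of batch 2 (0.0376). *Cxcl2* was called without siControl replicate 1 of batch 1 (0.0105) and *Ccl20* without siSbsn replicate 1 of batch 1 (0.0471). *Csf3* and *Nfkbid* differed least between batches, with −0.13 ± 0.17 and −0.08 ± 0.12 (adjusted p = 0.536 and 0.591). For *Csf2*, 39 reads in 4 libraries of batch 1 stood against 2 reads in 6 libraries of batch 2. That is 3.08% of the batch 1 level, with an exact 95% interval of 0.36% to 11.9% that covers counting error only. The leukocyte and keratinocyte marker sums were also lower in batch 2 and the melanocyte sum was higher, with the values given above. The keratinocyte markers did not all do so. In the siRNA libraries *Krt14* was 15100 to 28800 CPM in batch 1 and 9610 to 13400 CPM in batch 2. *Krt10* was 16.4 to 70.2 and 52.3 to 73.8 CPM, and *Dsp* 2820 to 8100 and 5600 to 8860 CPM. The part of these sums in the batch differences was not tested.

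Of the 101 list genes 16 were called higher and 35 lower in batch 2, beside 16.4% and 21.3% of all loci. Among the further cytokines 14 of 24 were called lower, led by *Il15* (−3.21), *Il34* (−2.66), *Il18* (−2.21) and *Il1f9* (−1.68), and 3 higher, namely *Kitl* (1.32), *Cxcl10* (0.84) and *Il11* (0.68). The receptor *Il1r1* was called higher (1.49, edgeR adjusted p = 0.00013), and *Csf2rb* (−1.79), *Il7r* (−1.61), *Csf2rb2* (−1.45) and *Crlf2* (−0.76) were called lower. In the NF-kappaB family *Rel* (1.02) and *Nfkbia* (0.80) were called higher and *Bcl3* (−1.35) lower. The inflammasome and pore genes *Gsdma* (−2.48), *Pycard* (−2.36), *Nlrp10* (−1.97) and *Casp8* (−0.96) were among 6 of 9 processing genes called lower.

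Feedback and target genes were called lower for 6 of 17, with *Mmp9* (−2.43), *Tnfaip2* (−1.71), *Plau* (−1.42) and *Mmp13* (−1.41) furthest, and higher for *Icam1* (0.56) and *Traf2* (0.56). Upstream, *Map3k14* (0.79), *Tab3* (0.59), *Traf6* (0.57) and *Map3k7* (0.55) were among 5 called higher and *Irak2* (−0.54) was called lower. Of the listed regulators of mRNA decay *Zc3h12c* (1.38), *Rc3h1* (0.84) and *Rc3h2* (0.82) were called higher and *Zc3h12a* (−0.78) lower. No other gene of that list was called, with *Zfp36* at −0.20 and *Elavl1* at 0.14. All of these are log2 fold changes of batch 2 over batch 1.

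The cultures without siRNA allow a comparison of siControl with no siRNA within batch 1. Whether they received the transfection reagent is not given in these sources, so the pool and transfection itself cannot be told apart. With edgeR no member was called (0 of 8 tested), nor was any of 13176 loci (0%), of which 2116 had an unadjusted p under 0.05. *Csf2* was among the 8 but is not read as tested, for the reason on the filter given above. DESeq2 called 25 loci and no member. Without siControl replicate 2 of batch 1 edgeR called 3213 of 13558 loci, and without the filter on low counts 815 of 18973, with 0 members each time. *Csf3* was 2.06 and 3.06 CPM without siRNA, below both siControl libraries (3.39 and 4.49 CPM) and around the siSbsn libraries (2.16 and 1.93 CPM). *Nfkbid* was 2.48 and 3.31 CPM without siRNA and overlapped siControl. *Cxcl1* was 3.54 and 8.85 CPM, *Ccl20* 2.27 and 6.37 CPM and *Il1a* 45.1 and 127 CPM without siRNA, each overlapping the siControl values given above for *Cxcl1* and *Ccl20* and for *Il1a*.

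The fitted log2 fold changes of siControl over no siRNA were 0.66 ± 0.32 for *Csf3*, 0.75 ± 0.55 for *Cxcl1*, 0.84 ± 0.54 for *Ccl20* and 0.33 ± 0.61 for *Il1a*. Those of siSbsn over no siRNA were −0.33 ± 0.33, −1.06 ± 0.56, −0.78 ± 0.55 and −1.26 ± 0.62 for the same genes. For *Nfkbid* siControl over no siRNA was 0.25 ± 0.31 and siSbsn over no siRNA −0.35 ± 0.31. The values of *Csf3* and *Nfkbid* carry no test, because their siControl libraries were used to choose them. EdgeR called neither contrast for *Cxcl1* (adjusted p = 0.439 and 1.00), *Ccl20* (0.399 and 1.00) or *Il1a* (0.758 and 1.00). With libraries left out in turn, siControl over no siRNA ranged from 0.39 to 0.97 for *Csf3*, 0.0018 to 1.56 for *Cxcl1*, 0.27 to 1.76 for *Ccl20* and −0.56 to 1.27 for *Il1a*. *Cxcl1* (0.0018) and *Il1a* (−0.56) were lowest without siControl replicate 2 of batch 1. Both contrasts use the same 2 libraries without siRNA, and the first shares siControl with the comparison above. Of the list genes 108 were tested for siControl against no siRNA, and none was called. *Nfkbia* had 0.62 ± 0.31 and *Cxcl16* 0.66 ± 0.24 (edgeR adjusted p = 0.322 and 0.308).

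Within batch 1 the 2 libraries of each condition differed in a like manner for several members. The library numbered 2 was above the library numbered 1 in all 3 conditions for 4 of the 10 genes, *Il1a*, *Cxcl1*, *Cxcl2* and *Ccl20*. For *Il1a* the ratio of number 2 to number 1 was 2.79 without siRNA, 2.79 with siControl and 1.75 with siSbsn. For *Cxcl1* it was 2.32, 2.33 and 1.41, and for *Ccl20* 2.48, 1.68 and 1.62. *Tslp* ran the other way, with ratios of 0.363, 0.444 and 0.392. Over all loci tested 28.7% were higher in number 2 in all 3 conditions and 27.8% were lower, so such a pattern was common.

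*Csf3* and *Nfkbid* were higher in number 2 without siRNA (1.39 and 1.28) and with siControl (1.28 and 1.33) and nearly level with siSbsn (0.914 and 0.976). *Il1rn* was nearly level in each condition (0.870, 1.05 and 0.944). In the lists the genes higher in number 2 in all 3 conditions were 1 of 9 receptors, 5 of 24 further cytokines, 5 of 10 NF-kappaB family genes, 8 of 17 feedback and target genes, 7 of 17 upstream genes, 2 of 9 processing genes and 4 of 15 decay regulators. Those lower in all 3 were 3, 8, 0, 2, 3, 5 and 1 in the same order. These stand beside the 28.7% and 27.8% of all loci. Marker sums moved with the number as well, that of keratinocytes included. The leukocyte sum was lower in number 2 in each condition (33.8 and 23.0 CPM in numbers 1 and 2 without siRNA, 34.3 and 24.7 CPM with siControl, 32.6 and 21.5 CPM with siSbsn). Its genes did not all do so: with siControl 6 of the 15 were lower in number 2 and 6 higher, with *S100a8* at 16.4 and 9.23 CPM and *Ptprc* at 0.468 and 1.17 CPM in numbers 1 and 2. The fibroblast sum was also lower in number 2 in each condition (985 and 524, 462 and 446, and 1220 and 529 CPM in the same order). Of its 8 genes, 8 were lower in number 2 without siRNA, 5 with siControl (3 higher) and 6 with siSbsn (2 higher). The keratinocyte sum was lower in number 2 too (40600 and 30000, 51000 and 32500, and 43400 and 36200 CPM). So was the melanocyte sum (837 and 703, 699 and 692, and 853 and 685 CPM). With siControl 4 of the 8 keratinocyte and 3 of the 5 melanocyte markers were higher in number 2. The endothelial sum was higher in number 2 with siControl (1.22 and 2.54 CPM) and lower otherwise. The part of these sums in the pattern was not tested. What the numbers stand for is not given in the labels.

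**Figure D4:**
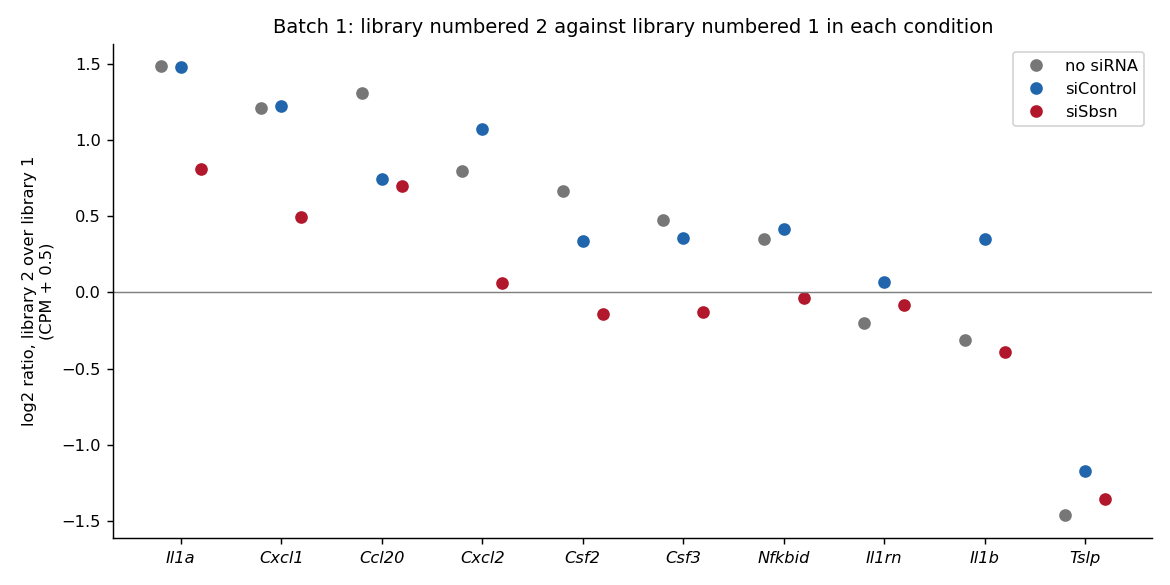
Log2 ratio of the library numbered 2 over the library numbered 1 in batch 1 (y axis, CPM plus 0.5) for each of the 10 genes (x axis), with 1 point per condition. All 3 points lie above 0 for *Il1a*, *Cxcl1*, *Ccl20* and *Cxcl2* and below 0 for *Tslp*, while *Il1rn* stays near 0.

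Across the 12 libraries, with each batch set to its own mean, the members fell into an order of likeness. The correlation of log2(CPM + 0.5) was 0.95 between *Cxcl1* and *Ccl20*, 0.94 between *Cxcl1* and *Il1a*, 0.90 between *Csf3* and *Nfkbid*, 0.87 between *Csf3* and *Ccl20* and 0.87 between *Nfkbid* and *Cxcl1*. *Tslp* was opposed to *Il1a* (−0.76) and to *Cxcl1* (−0.63). *Il1rn* was at −0.38 to *Il1a*. These values share libraries, treatment and the library numbers of batch 1, and they describe 12 libraries only. *Csf3* and *Nfkbid* were both chosen for lower values with siSbsn in these libraries. Their 0.90 therefore follows in part from that choice and is no separate evidence of likeness.

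Of all 13562 loci compared, those most like *Csf3* were *Zc3h12a* (0.95), *Paip1* (0.93), *Ptgds* (0.93), *Gclm* (0.93) and *Procr* (0.93). Those most like *Nfkbid* were the joined locus of *AK038627* and *Hspa4* (0.96), *Terf2ip* (0.95), the joined locus of *Cenpu* and *Primpol* (0.95), *Polr2m* (0.93) and *Itga5* (0.93). The 2 lists share no locus. In each case the correlation is over the same 12 libraries, and *Csf3* and *Nfkbid* had been chosen for their pattern in them.

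**Figure D5:**
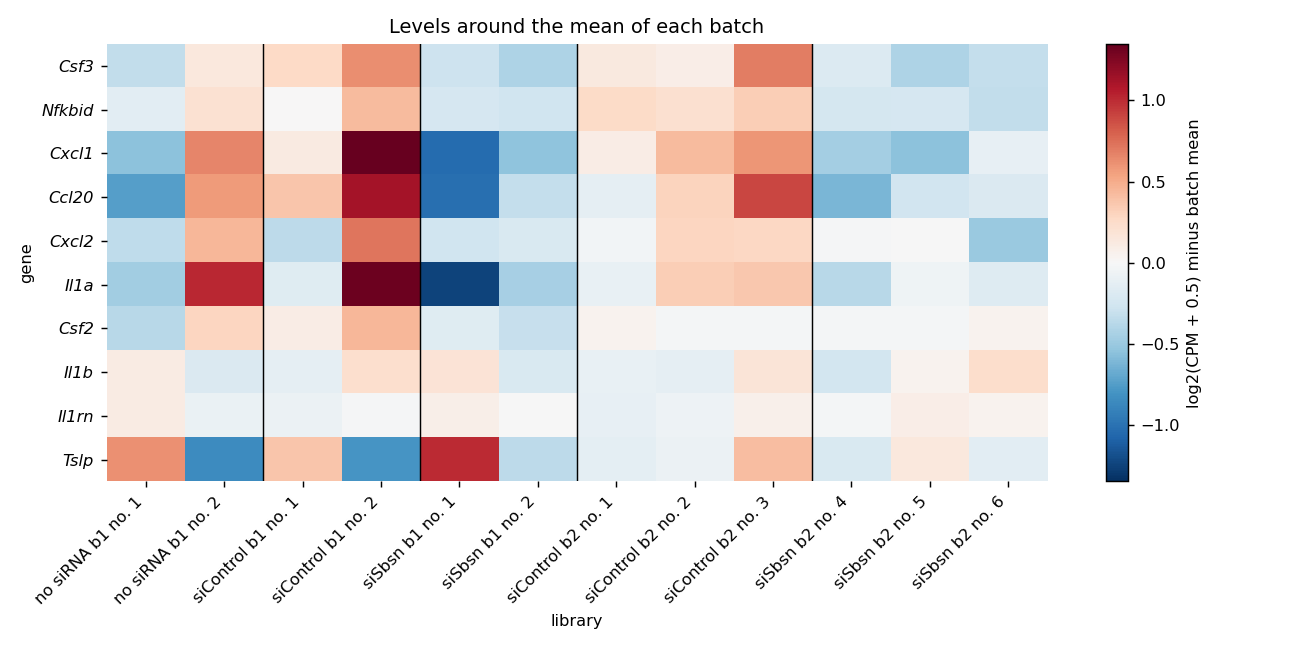
Log2(CPM + 0.5) of each of the 10 genes (rows) in the 12 libraries (columns, b1 and b2 are batches and no. is the library number), minus the mean of its batch; red is above and blue below that mean. siControl library 2 of batch 1 is high for *Il1a*, *Cxcl1* and *Ccl20* and low for *Tslp*, and the 5 siSbsn libraries are below the batch mean for *Csf3* and *Nfkbid*, the genes chosen for that pattern.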

How the data were processed

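The authors aligned the RNA-Seq reads of the 12 libraries to mm10 with STAR and deposited, for every UCSC KnownGene locus, the raw counts of reads with a unique alignment. Overlapping genes were joined. The strand setting of the counting is not given in these sources. Gene names were split at the plus sign, and 1828 loci with comma-joined names were left out of the gene lists. One unexpressed comma-joined locus that carries the *Tslp* name was among them. Starts are printed after adding 1.

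The edgeR package (version 4.0.16, R 4.3.3) served for TMM scaling, for filtering low counts by treatment and for the quasi-likelihood test, in which treatment and batch were terms. A call required a Benjamini-Hochberg adjusted p under 0.05 over all loci tested together with a log2 fold change beyond 0.5 in either direction, and for interactions the adjusted p alone. DESeq2 1.42.0 was an alternative. CPM is the count scaled to an effective library size of 1000000, and log2 values of single libraries used CPM plus 0.5. SE was derived from the log2 fold change and its F statistic. The tests were tried on simulated counts before use.

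The members and gene lists were chosen with earlier results of these data known. All members are named. Of each list the called genes (at most 4 in each direction) are named, or else the 2 most abundant tested genes, and the 5 loci most like *Csf3* and *Nfkbid*. Genes outside this rule were named after their values were seen where a count was small. Alternatives were DESeq2, its size factors, no filter, leaving out each library, a replicate block, removal of each library's trend on gene length, all 12 libraries in 1 fit and batch 2 alone, which was chosen after seeing the data.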

Additional observations from a re-analysis of the deposited data

How the results depend on the processing

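Of 105 alternative values of the counts called and of the interleukin-1 ratio, 101 kept their direction and side of the threshold. Of 543 values of single members 476 did, 37 turned, 11 moved, 10 passed a threshold they had missed and 9 lost one, all 9 being *Tslp* between batches. The number of members called between batches ranged from 3 to 6 against 4. DESeq2 called 2 members and 2 list genes in siSbsn against siControl where edgeR called 0. The *Il1rn* ratio (log2 difference 0.88) kept its direction when libraries were left out (0.57 to 1.00), missed the threshold without siSbsn replicate 1 of batch 1 (0.65), and in batch 2 alone was 0.47, where the exact permutation test cannot reach it.

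Small log2 fold changes turned. In siSbsn against siControl *Il1b* was 0.094 with the length trend removed and 0.053 in batch 2 alone, and ranged from −0.15 to 0.12 with libraries left out. *Tslp* was −0.14 in batch 2 alone and ranged from −0.17 to 0.29. Between batches *Csf3* was 0.17 and *Nfkbid* 0.12 with the length trend removed, and they ranged from −0.23 to 0.010 and −0.17 to 0.031. For siControl over no siRNA *Il1b* was −0.027 with the length trend removed and *Tslp* 0.079 in the fit of all 12 libraries. With libraries left out *Il1a* ranged from −0.56 to 1.27, *Il1b* from −0.079 to 0.43, *Il1rn* from −0.13 to 0.070, *Cxcl2* from −0.89 to 1.28 and *Tslp* from −0.85 to 0.80. For the difference between batches the ranges were −0.14 to 0.47 for *Il1b*, −0.066 to 0.055 for *Il1rn*, −1.22 to 0.73 for *Cxcl2* and −1.41 to 0.087 for *Tslp*. The cause was not tested.

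With the replicate block on the library numbers of batch 1, siSbsn against siControl still had 0 members called (*Cxcl1* −1.19 and *Ccl20* −1.17, adjusted p = 0.113 each), the ratio had p = 0.025 by exact permutation, and 5 members were called between batches instead of 4, *Cxcl1* being added (−0.62, adjusted p = 0.027). The labels do not say that a number marks a shared culture. The deviations of same-numbered libraries correlated across loci at 0.39, 0.82 and 0.47 for the 3 pairs of conditions. Over all loci the block raised the interaction calls from 0 to 69, and they were 4905 without siControl replicate 2 of batch 1 and 435 without siSbsn replicate 2 of batch 1.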
